A study of Mus musculus with 10 samples.

Results

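The G1 cyclins, their kinases, E2f1 and Rb1 were followed as a set of 10 genes: Ccnd1, Ccnd2, Ccnd3, Ccne1, Ccne2, Cdk2, Cdk4, Cdk6, E2f1 and Rb1. Their members were every probe set of the array whose platform annotation gave exactly 1 symbol and whose symbol was one of these, which made 29 probe sets of 45101 and 10 genes of 18193 measured. Ccnd2 had 7 probe sets. Ccnd1, Ccnd3, Cdk4, Cdk6 and E2f1 had 3 each, Ccne1, Cdk2 and Rb1 had 2 each, and Ccne2 had 1. The members were listed by name and not by their measured values, though with earlier results of these data known.

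The samples were whole hearts of female mouse embryos at 13.5 dpc (days post coitum), snap-frozen after dissection, with 4 to 5 hearts of 1 genotype pooled for each RNA. The 5 Hccs het KO pools came from embryos with a heterozygous, heart-conditional knockout of Hccs, and the 5 control pools came from their female littermates. Hccs lies on the X chromosome and encodes the enzyme that attaches haem to mitochondrial cytochromes, so X inactivation leaves a heterozygous female with 2 populations of heart cells, one lacking the gene. The Cre driver and the exact genotype of the littermates are not given in the sources used here. The design text places this stage where healthy cardiomyocytes proliferate strongly while HCCS-deficient cells still make up part of the heart, and the question put to the 10 genes was which of them differed between the genotypes.

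Cells enter the division cycle through these proteins. D-type cyclins, made in response to mitogens, bind the kinases Cdk4 and Cdk6, and E-type cyclins bind Cdk2. Both kinds of complex phosphorylate the retinoblastoma protein Rb1, which releases E2F factors such as E2f1 to switch on the genes of DNA replication, Ccne1 and Ccne2 among them. In the embryonic mouse heart, D-type cyclins and Cdk4 are abundant in dividing cardiomyocytes, and their levels fall after birth.

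The promoter letters of Cdk2 and Ccne1 are shown because the E2F motif is the letter pattern through which this circuit feeds back on its own genes. The motif was searched on both strands as TTTGGCGC, TTTCCCGC, TTTCGCGC or TTTGCCGC in RefSeq windows of 300 bases, 250 of them before the gene start (build GRCm38.p6). Windows were held for 6 of the 10 members (7 windows), and none was held for Ccnd1, Ccnd2, Ccne2 or Rb1. Of these 7 windows 4 begin from the outer start of the annotated gene, those of Cdk2, Ccne1, Cdk4 and 1 of Ccnd3. The other 3, of E2f1, Cdk6 and Ccnd3, are set on a start inside the gene, 466 bases inside it for E2f1, so they say nothing of the region before the outer start. Among all 32851 windows, 744 held a match, which is 2.26%. Among the members, 1 of 7 windows did, that of Cdk2. The Cdk2 stretch covers chr10:128705128-128705247 on the minus strand, bases 196 to 77 before the start, and its capitals mark TTTCCCGC on the opposite strand. The Ccne1 stretch (chr7:38107491-38107610, minus strand) is the 120 bases before the start, is shown for comparison, and holds no match.
Cdk2 promoter stretch: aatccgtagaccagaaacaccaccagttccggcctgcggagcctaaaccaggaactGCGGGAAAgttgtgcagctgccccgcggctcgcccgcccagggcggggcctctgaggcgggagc
Ccne1 promoter stretch: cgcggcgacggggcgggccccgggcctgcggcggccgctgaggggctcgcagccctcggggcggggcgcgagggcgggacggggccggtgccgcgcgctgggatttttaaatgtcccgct
A match is a description of letters and says nothing of binding, and the absence of one says only that these letters are not in the window.

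All values are log2 signals, so a difference of 1 is a doubling of signal, and changes are Hccs het KO minus control. Array medians lay between 3.65 and 3.76. Signals of different probe sets have no common scale, so the level of a probe set served only to choose the one that stands for a gene, and groups were compared within a probe set. Hccs itself read 10.81, 10.73, 10.90, 10.57 and 10.39 in the Hccs het KO pools, against 11.11, 11.31, 11.28, 11.20 and 11.25 in the control pools. It fell by 0.55 (SE 0.090, limma adjusted p = 0.0225, exact two-sided permutation p = 0.00794 with n = 5 each), and every Hccs het KO pool lay below every control pool. Without control replicate 3 the change was -0.54 and the limma adjusted p was 0.0511. The p-values measure the spread between these pools, and in whole hearts fewer cells of a type and less RNA per cell cannot be told apart.

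The cell type markers and the quality of the arrays varied alongside the genotypes. Of 9 cardiomyocyte markers 8 had a negative change (median -0.21), 7 had an unadjusted p under 0.05 and 2 fell, Myh7 by 0.47 (limma adjusted p = 0.0250) and Myl2 by 0.23 (limma adjusted p = 0.0291). The summed cardiomyocyte signal was 17.95 to 18.15 in Hccs het KO pools and 18.17 to 18.28 in control pools, without overlap. Of 7 epicardial markers Tcf21 rose by 0.61 (limma adjusted p = 0.0376), with a summed signal of 13.32 to 13.60 in Hccs het KO pools and 12.95 to 13.41 in control pools. In the other 6 lists (endothelial, mesenchymal, smooth muscle, erythroid, macrophage and neuronal) none of 35 measured markers passed limma's adjusted threshold. The list medians lay between -0.64 and 0.01. An unadjusted p under 0.05 was reached by 9 of the 35 (20.6% of all genes did). These were 4 of 8 endothelial, 2 of 4 smooth muscle, 2 of 7 macrophage and 1 of 5 erythroid markers. All of them were lower in Hccs het KO pools except the macrophage marker C1qb. Control replicate 3 stood apart in the neuronal markers, with a summed signal of 10.07 against 6.84 to 8.43 in the other 9 pools. Control replicates 1 and 2, at 8.32 and 8.43, also lay above the Hccs het KO range of 6.97 to 7.48. Control replicates 4 and 5, at 7.12 and 6.84, did not. The array's 5' probe set for 18S RNA, a sign of RNA handling, read 7.84 to 8.57 in Hccs het KO pools and 8.06 to 11.4 in control pools (exact two-sided permutation p = 0.0238, n = 5 each). Only control replicate 3, at 8.06, lay within the Hccs het KO range. The other control pools read 9.88, 10.58, 10.26 and 11.45. The part of these differences in the changes below was not tested. Results that rest on control replicate 3 are given with and without it.

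Across the 10 genes, each read by its brightest probe set, 1 passed limma's adjusted threshold of 0.05, and it was higher in Hccs het KO hearts. Of all 18193 genes 469 passed, which is 2.58%, and 297 of them (1.63% of all genes) were higher in Hccs het KO hearts. An unadjusted p under 0.05 was reached by 4 members (Ccnd3, Ccne2, Cdk4 and Cdk6), against 20.6% of all genes. Groups that did not overlap occurred in 1 member, Ccnd3, against 5.79% of all genes. The median change of the members was -0.043, with 4 positive and 6 negative, and that of all genes was 0.025.

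Probe set by probe set, 1 of 29 passed, against 1.14% of the 45037 tested. It belonged to Ccnd2. Groups that did not overlap occurred in 3 of the 29, 2 of Ccnd2 and 1 of Ccnd3, against 5.26% of all probe sets. Changes were positive in 15 and negative in 14. On all 10 arrays 5 probe sets, 1 each of Ccnd3, Cdk2, Cdk6, E2f1 and Rb1, lay below the array median, and the remaining 24 did not. The call for Ccnd2 therefore depended on which probe set stood for it. The plot of all probe sets gives the change of each.

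**Figure D1:**
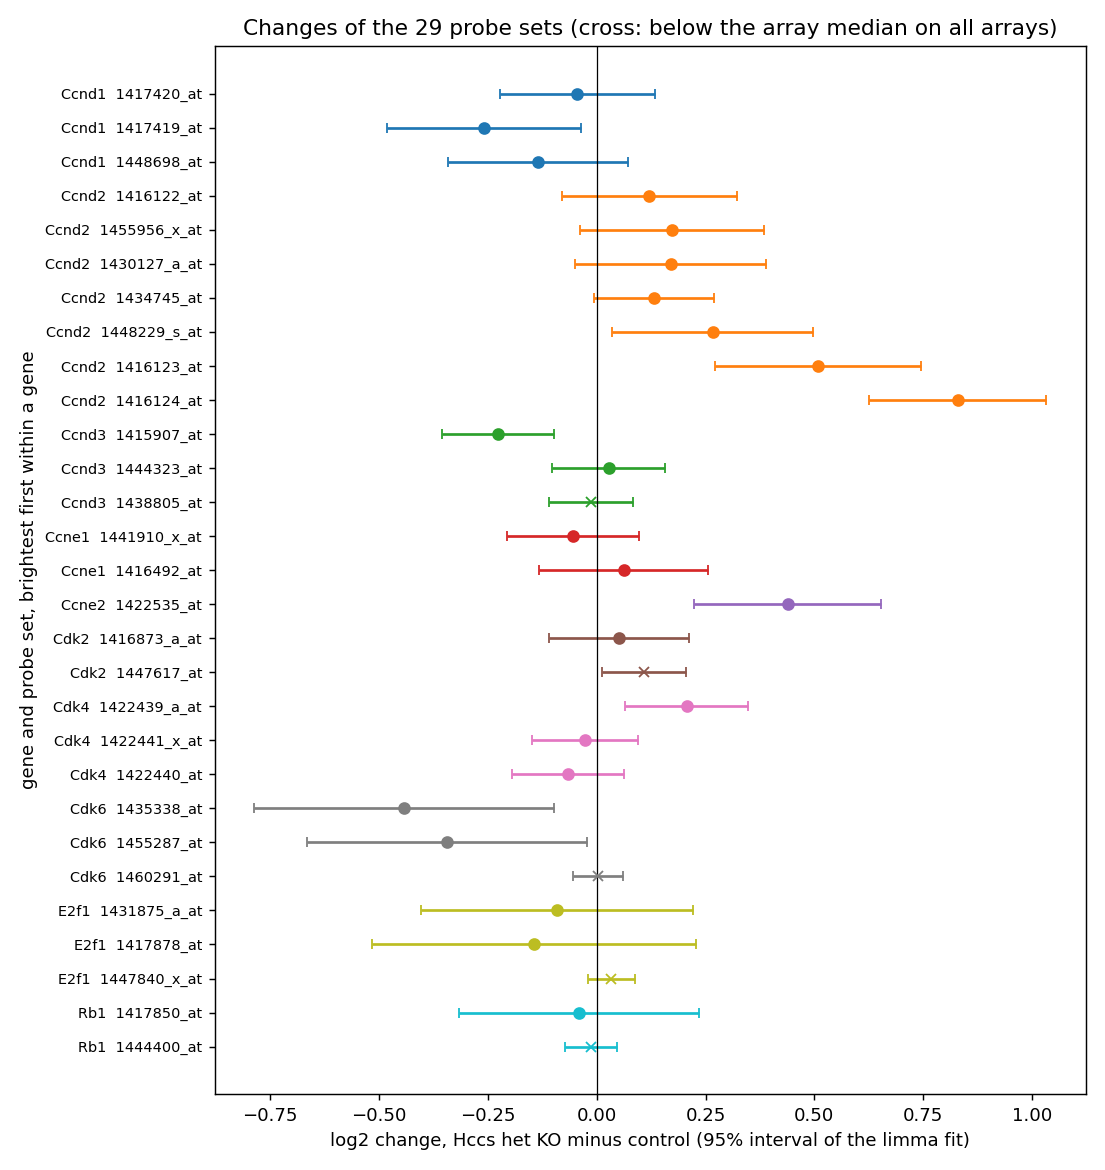
Log2 change (Hccs het KO minus control, horizontal axis, 95% interval of the limma fit over 5 and 5 pools) of each of the 29 probe sets, listed by gene with the brightest first and with crosses for those below the array median on all arrays. The 7 Ccnd2 probe sets all lie right of 0, the 3 Ccnd1 probe sets all lie left of it, and the Cdk4 probe sets lie on both sides.

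Ccnd1, the D-type cyclin most widely tied to mitogen signals, was measured by 3 probe sets. Its brightest, 1417420_at, read 11.64, 11.44, 11.73, 11.32 and 11.45 in Hccs het KO pools, against 11.67, 11.60, 11.58, 11.41 and 11.54 in control pools. The groups overlapped throughout, and the change was -0.045 (SE 0.079, 95% interval -0.22 to 0.13, limma adjusted p = 0.775). The other probe sets gave -0.26 (1417419_at, limma adjusted p over probe sets = 0.201) and -0.13 (1448698_at, 0.425). The 1417419_at means were 10.34 ± 0.17 in Hccs het KO pools and 10.60 ± 0.16 in control pools (SD, n = 5 each). All 3 were negative and none passed.

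Ccnd2, a D-type cyclin whose forced expression keeps cardiomyocytes of transgenic mice dividing, had the widest spread between its own probe sets. Its probe set 1416124_at read 8.47, 8.70, 8.79, 8.46 and 8.44 in Hccs het KO pools, against 7.65, 7.93, 7.84, 7.72 and 7.58 in control pools. Every Hccs het KO pool lay above every control pool. This probe set rose by 0.83 (SE 0.090, 95% interval 0.63 to 1.03), a 1.78-fold difference (1.54 to 2.04), with a limma adjusted p over all probe sets of 0.00847. It passed with each of the 10 pools left out in turn (change 0.78 to 0.88), and without control replicate 3 the change was 0.85 (limma adjusted p = 0.0231).

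A second Ccnd2 probe set, 1416123_at, read 9.55, 9.61, 9.42, 9.29 and 9.15 in Hccs het KO pools, against 8.96, 9.002, 9.08, 8.71 and 8.73 in control pools. These groups did not overlap either, and the difference of 0.51 (1.42-fold) missed the threshold (limma adjusted p = 0.0570). The brightest, 1416122_at, which stands for the gene, read 13.35, 12.86, 13.15, 13.07 and 13.12 in Hccs het KO pools, against 13.12, 12.95, 13.002, 13.05 and 12.81 in control pools. Here the groups overlapped, with a change of 0.12 (SE 0.089, 95% interval -0.08 to 0.32, limma adjusted p = 0.461). The remaining probe sets gave 0.17 (1455956_x_at), 0.17 (1430127_a_at), 0.13 (1434745_at) and 0.27 (1448229_s_at, limma adjusted p over probe sets = 0.205).

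All 7 changes were positive, and they ran over 0.12 to 0.83. The platform annotation ties 4 of the 7, 1416122_at, 1416123_at, 1416124_at and 1448229_s_at, to the same RefSeq transcript, so it does not separate them by transcript. Within an array, 1416124_at minus 1416122_at ran over -4.87 to -4.16 in Hccs het KO pools and -5.47 to -5.03 in control pools, without overlap. Why probe sets of 1 transcript differed in size of change was not tested. With the mean of all 7 probe sets in place of the brightest, Ccnd2 passed at gene level (change 0.31, limma adjusted p = 0.0412).

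**Figure D2:**
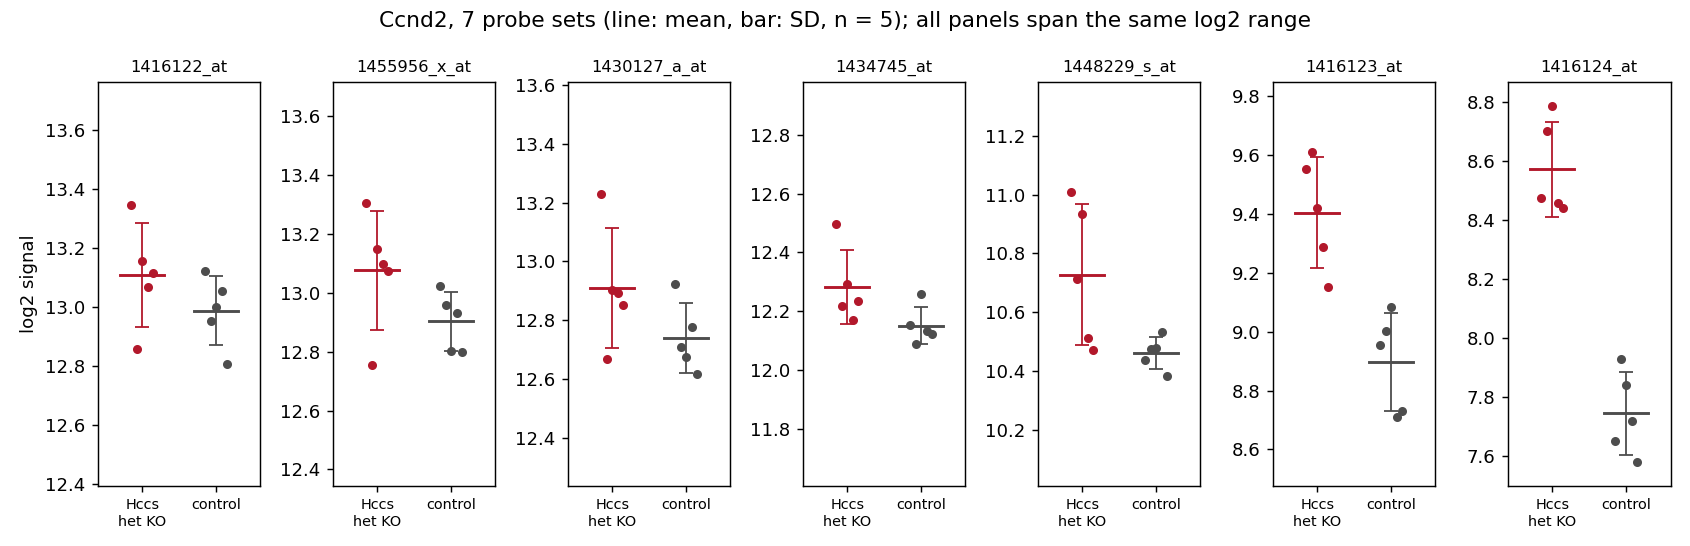
Log2 signal (vertical axes, all of equal span) of the 7 Ccnd2 probe sets in 5 Hccs het KO and 5 control pools, 1 point per pool with mean line and SD bar. The groups overlap in 5 probe sets and separate in 1416123_at and 1416124_at, where the changes are 0.51 and 0.83.

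Ccnd3, the D-type cyclin that remains expressed in many differentiated tissues, had the opposite sign to Ccnd2. Its brightest probe set, 1415907_at, read 12.26, 12.30, 12.14, 12.23 and 12.23 in Hccs het KO pools, against 12.37, 12.49, 12.58, 12.31 and 12.56 in control pools. The groups did not overlap, with the highest Hccs het KO pool just below the lowest control pool. The difference was -0.23 (SE 0.058, 95% interval -0.36 to -0.10), or -14.6%, and it missed the threshold (limma adjusted p = 0.0715). It missed it in all 22 alternative settings too (adjusted p 0.0570 to 0.259). The other Ccnd3 probe sets had low signals, against array medians of 3.65 to 3.76. Of these, 1444323_at read 4.38 to 4.62 in Hccs het KO pools and 4.36 to 4.58 in control pools, and gave 0.03. The dim 1438805_at gave -0.01.

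Ccne2, an E-type cyclin and itself an E2F target, was the member that passed at gene level. Its only probe set, 1422535_at, read 10.44, 10.82, 10.93, 10.91 and 10.66 in Hccs het KO pools, against 10.33, 10.26, 10.24, 10.47 and 10.25 in control pools. Of the Hccs het KO pools 4 of 5 lay above every control pool, and replicate 1, at 10.44, lay just under the highest control. Ccne2 rose by 0.44 (SE 0.095, 95% interval 0.23 to 0.65), a 1.36-fold difference (1.17 to 1.57), with a limma adjusted p of 0.0451 over genes and 0.0629 over probe sets. The call was narrow. With 1 pool left out at a time it passed without Hccs het KO replicate 1 (limma adjusted p = 0.00750) and missed in the other 9 fits (highest 0.103), among them the one without control replicate 3 (change 0.42, limma adjusted p = 0.101). Over all 22 alternatives the change stayed positive, at 0.38 to 0.52, and the call was lost in 14 of them. With only 1 probe set, the settings that change the choice of probe set could not alter the change.

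Ccne1, the other E-type cyclin, read 8.59, 8.78, 8.66, 8.53 and 8.68 in Hccs het KO pools with 1441910_x_at, against 8.68, 8.58, 8.60, 8.88 and 8.79 in control pools. The groups overlapped, and the change was -0.055 (SE 0.068, 95% interval -0.21 to 0.10, limma adjusted p = 0.664). Its second probe set, 1416492_at, gave 0.062, so the gene has no settled sign.

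**Figure D3:**
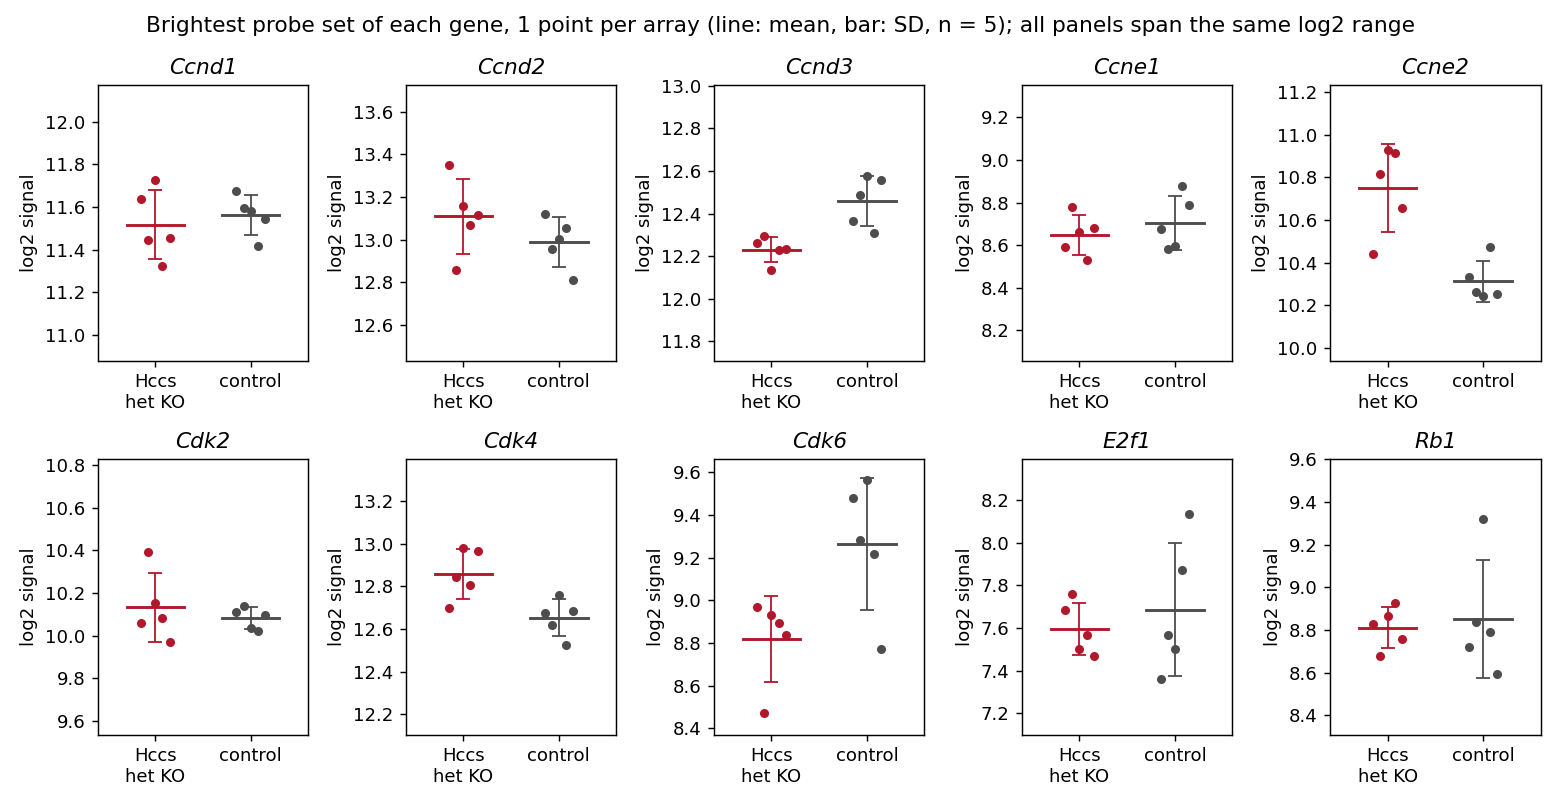
Log2 signal (vertical axes, all of equal span) of the brightest probe set of each of the 10 genes in 5 Hccs het KO and 5 control pools, 1 point per pool with mean line and SD bar. Ccnd3 separates the groups with Hccs het KO lower, Ccne2 and Cdk4 have 4 of 5 Hccs het KO pools above all controls, and the other panels overlap.

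Cdk2, the kinase partner of the E-type cyclins, had 10.13 ± 0.16 in Hccs het KO pools and 10.08 ± 0.05 in control pools (SD, n = 5 each). The single Hccs het KO pool at 10.39 was the highest of the 10. The change was 0.05 (SE 0.072, 95% interval -0.11 to 0.21, limma adjusted p = 0.712), and the dim second probe set gave 0.11.

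Cdk4, a kinase partner of the D-type cyclins, read 12.70, 12.85, 12.98, 12.81 and 12.97 in Hccs het KO pools with 1422439_a_at, against 12.68, 12.62, 12.76, 12.53 and 12.68 in control pools. Again 4 of 5 Hccs het KO pools lay above every control pool. The difference of 0.21 (SE 0.064, 95% interval 0.07 to 0.35) missed the threshold (limma adjusted p = 0.118), and it passed with Hccs het KO replicate 1 left out (limma adjusted p = 0.0435). The other Cdk4 probe sets did not pass and had the opposite sign: 1422441_x_at gave -0.03 (limma adjusted p over probe sets = 0.794) and 1422440_at gave -0.07 (0.527). Within an array, 1422439_a_at minus 1422440_at was 0.534 to 0.883 in Hccs het KO pools and 0.429 to 0.619 in control pools, with Hccs het KO replicate 1 among the controls. All 3 Cdk4 probe sets carry the same transcript in the annotation.

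Cdk6, the second partner of the D-type cyclins, read 8.97, 8.47, 8.93, 8.89 and 8.83 in Hccs het KO pools with 1435338_at, against 9.48, 9.28, 9.56, 9.22 and 8.77 in control pools. Control replicate 5, at 8.77, lay inside the Hccs het KO range, and the other control pools lay above it. The difference was -0.44 (SE 0.152, 95% interval -0.78 to -0.10, limma adjusted p = 0.149). Without control replicate 5 it was -0.57 and passed (limma adjusted p = 0.0456), and without control replicate 3 it was -0.37 (limma adjusted p = 0.270). A second probe set, 1455287_at, had the same sign at -0.34 (limma adjusted p over probe sets = 0.228), with means of 8.39 ± 0.28 in Hccs het KO pools and 8.73 ± 0.21 in control pools (SD, n = 5 each). Both probe sets cite the same sequence record, so they are not independent readings. The third, 1460291_at, stayed near 2.2 on every array.

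E2f1, the activator factor released by Rb1, read 7.68, 7.76, 7.50, 7.57 and 7.47 in Hccs het KO pools with 1431875_a_at, against 7.36, 7.57, 7.50, 7.87 and 8.13 in control pools. The control pools spread wider (SD 0.31) than the Hccs het KO pools (SD 0.12), with control replicate 5 highest. The change was -0.091 (SE 0.138, 95% interval -0.40 to 0.22, limma adjusted p = 0.732), and it was 0.021 without control replicate 5. The second probe set, 1417878_at, gave -0.14, and there too control replicate 5 was the highest pool, at 7.41.

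Rb1, the pocket protein that holds E2F factors in check, read 8.83, 8.68, 8.86, 8.93 and 8.76 in Hccs het KO pools with 1417850_at, against 8.72, 8.84, 9.32, 8.79 and 8.59 in control pools. Control replicate 3 was the highest, the pool that stood apart in the neuronal markers. The change was -0.041 (SE 0.122, 95% interval -0.31 to 0.23, limma adjusted p = 0.869) with that pool and 0.076 without it. The dim second probe set gave -0.01.

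Whether relatives within the circuit changed by different amounts was asked with the within-array difference of their signals, in 6 pairs. Ccne1 minus Ccne2 shifted by -0.49 (95% interval -0.71 to -0.27), with means of -2.10 ± 0.22 in Hccs het KO pools and -1.61 ± 0.09 in control pools (SD, n = 5 each) and no overlap. The p of the exact two-sided permutation test was 0.00794, which is the lowest possible with 5 pools a group, or 0.0476 after Benjamini-Hochberg adjustment over the 6 pairs. By this narrow call the E-type cyclins, each read by its brightest probe set, changed by unequal amounts in these pools. Without any single one of control replicates 1 to 4 that adjusted exact p lay between 0.0635 and 0.0952, with shifts of -0.51 to -0.49. The groups still did not overlap in those fits, where the exact test has fewer splits of the pools.

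Cdk4 minus Cdk6 shifted by 0.65 (95% interval 0.30 to 1.004), with 4.04 ± 0.24 in Hccs het KO pools and 3.39 ± 0.30 in control pools (SD, n = 5 each). Control replicate 5, at 3.91, lay among the Hccs het KO pools. Its exact two-sided permutation p was 0.0159 (adjusted 0.0476). That call was lost in 7 of 10 fits with 1 pool left out, those without control replicates 1 to 4 or Hccs het KO replicates 3 to 5 (adjusted exact p up to 0.0952), with shifts of 0.60 to 0.68 there. It was also lost with the mean of all probe sets, where the shift was 0.30 (adjusted exact p = 0.0714). That mean counts the dim Cdk6 probe set 1460291_at equally with the brighter ones.

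Among the D-type cyclins no pair passed. Ccnd2 minus Ccnd3 shifted by 0.35 (95% interval 0.07 to 0.62, exact permutation p = 0.0397, adjusted 0.0794), and without Hccs het KO replicate 2 it shifted by 0.43 and passed (adjusted exact p = 0.0476). Ccnd1 minus Ccnd2 shifted by -0.17 (-0.36 to 0.03, exact permutation p = 0.103, adjusted 0.143). Ccnd1 minus Ccnd3 shifted by 0.18 (-0.04 to 0.40, exact permutation p = 0.119, adjusted 0.143), and E2f1 minus Rb1 by -0.05 (-0.55 to 0.45, exact permutation p = 0.825). With the mean of all probe sets, where all 7 Ccnd2 probe sets count equally, Ccnd1 minus Ccnd2 was -0.46 and Ccnd2 minus Ccnd3 was 0.38, both with an adjusted exact permutation p of 0.0159.

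**Figure D4:**
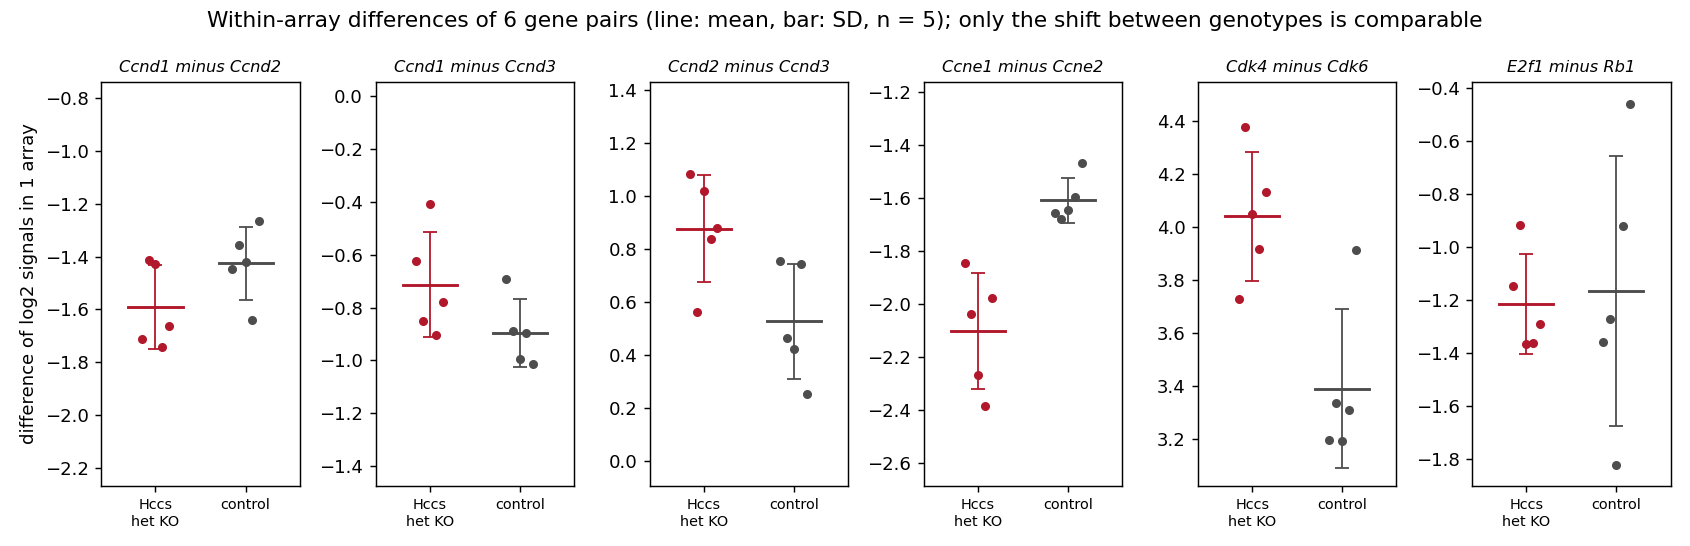
Difference of 2 genes' log2 signals within an array (vertical axes, all of equal span) for 6 pairs in 5 Hccs het KO and 5 control pools, 1 point per pool with mean line and SD bar. Ccne1 minus Ccne2 separates the groups, and in Cdk4 minus Cdk6 control replicate 5 lies among the Hccs het KO pools.

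Around these genes, 8 lists of the G1 to S pathway held 92 measured genes of 95 listed. Of the 92, 4 rose and 1 fell, together 5.43% against 2.58% of all genes. An unadjusted p under 0.05 was reached by 24 of 92, against 20.6% of all genes. The lists were chosen with earlier results of these data known and were not matched to all genes for signal level. The shares are therefore a description and not a test of the lists. No member of 5 lists with 44 measured genes passed limma's adjusted threshold, and 12 of those 44 had an unadjusted p under 0.05.

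Of 7 CDK inhibitors 1 rose, and the list's median was -0.053. Cdkn1a, which encodes p21 and is switched on by p53, read 9.21, 9.39, 8.54, 9.10 and 9.43 in Hccs het KO pools, against 8.25, 7.94, 8.62, 8.33 and 8.21 in control pools. Hccs het KO replicate 3 and control replicate 3 were the pools that overlapped. Cdkn1a rose by 0.86 (SE 0.176, 1.82-fold, limma adjusted p = 0.0396 over genes and 0.0566 over probe sets). Its second probe set, 1421679_a_at, gave 1.48 (limma adjusted p over probe sets = 0.0886). That probe set was dim, at 1.59 to 3.94 in Hccs het KO pools and 1.39 to 1.58 in control pools. Cdkn1c (p57) gave -0.16 (limma adjusted p = 0.261), Cdkn1b (p27) gave -0.053 (0.796), and Cdkn2c gave -0.29 (0.389).

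Of 19 measured E2F targets of S phase 2 rose, 15 were positive, and the median was 0.044. Mcm4, a subunit of the replicative helicase, read 11.73, 12.29, 12.57, 12.24 and 12.26 in Hccs het KO pools, against 11.69, 11.62, 11.57, 11.63 and 11.39 in control pools. With 1436708_x_at it rose by 0.64 (SE 0.135, 1.55-fold) without overlap. For Mcm4 the limma adjusted p was 0.0440 over genes and 0.0597 over probe sets. Its second probe set, 1416214_at, gave 0.13 (limma adjusted p over probe sets = 0.436). Rfc4, part of the clamp loader of DNA replication, read 11.53, 11.73, 11.86, 11.78 and 11.69 in Hccs het KO pools, against 11.28, 11.47, 11.39, 11.46 and 11.36 in control pools. It rose by 0.33 (SE 0.062, 1.25-fold, limma adjusted p = 0.0329), again without overlap. The groups did overlap in its second probe set, 1438161_s_at, which gave 0.27 (limma adjusted p over probe sets = 0.206). Most of the list stayed short of the threshold: the origin-licensing gene Cdc6 gave 0.30 (limma adjusted p = 0.0905), Orc1 of the origin recognition complex gave 0.78 (0.152), and the sliding clamp Pcna gave -0.0095 (0.936).

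Among 22 cyclins and kinases outside G1, 1 rose and 1 fell, with a median of -0.0077. Ccng1, a p53 target, read 12.85, 12.91, 12.65, 12.94 and 12.95 in Hccs het KO pools, against 12.26, 12.30, 12.12, 12.35 and 12.33 in control pools, and rose by 0.59 (SE 0.067, 1.503-fold, limma adjusted p = 0.00849). Cdk19, a kinase of the Mediator complex, read 8.09, 7.83, 8.02, 8.05 and 8.03 in Hccs het KO pools, against 8.27, 8.25, 8.31, 8.20 and 8.27 in control pools, and fell by 0.26 (SE 0.050, limma adjusted p = 0.0349). Neither gene's groups overlapped, but the second Cdk19 probe set, 1434997_at, gave -0.01. Ccng2 gave -0.31 (limma adjusted p = 0.0580) and Cdk17 gave -0.25 (0.120). Over probe sets the limma adjusted p was 0.0101 for Ccng1, 0.0442 for Rfc4 and 0.0450 for Cdk19. Of the 5 genes that passed in these lists, Ccng1 passed with each pool left out in turn. Cdkn1a and Cdk19 did so in 2 of 10 such fits, and Mcm4 and Rfc4 in 1 of 10, that without Hccs het KO replicate 1. Without control replicate 3 their limma adjusted p was 0.0511 for Cdkn1a, 0.0924 for Mcm4, 0.0748 for Rfc4 and 0.0814 for Cdk19.

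In the 5 lists with no call, the pocket proteins and E2F factors (11 genes, 2 with an unadjusted p under 0.05) had a median of -0.045. E2f5, a repressive E2F, gave 0.47 (limma adjusted p = 0.0572), Tfdp1, the dimer partner of E2F factors, gave 0.20 (0.107), and the Rb1 relatives Rbl1 and Rbl2 gave -0.045 (0.808) and -0.16 (0.270). The 8 enzymes that activate or inhibit CDKs had 3 with an unadjusted p under 0.05 and a median of 0.13, with Cdc25b, a CDK-activating phosphatase, at -0.22 (limma adjusted p = 0.112) and Cdc25c, of the same family, at 0.26 (0.130). The 10 genes of cyclin and inhibitor turnover had 2 and a median of -0.032, with Skp2, which marks p27 for degradation, at 0.46 (limma adjusted p = 0.118) and its partner Skp1 at -0.24 (0.218). The 5 S and M phase genes had 2 and a median of -0.018, with Ccna2 at -0.19 (limma adjusted p = 0.102), Ccnf at 0.18 (0.220) and Cdk1 at -0.018 (0.866). The 10 mitogen-induced factors had 3 and a median of 0.11, with Ets1 at 0.17 (limma adjusted p = 0.132) and Mycn at 0.15 (0.160).

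**Figure D5:**
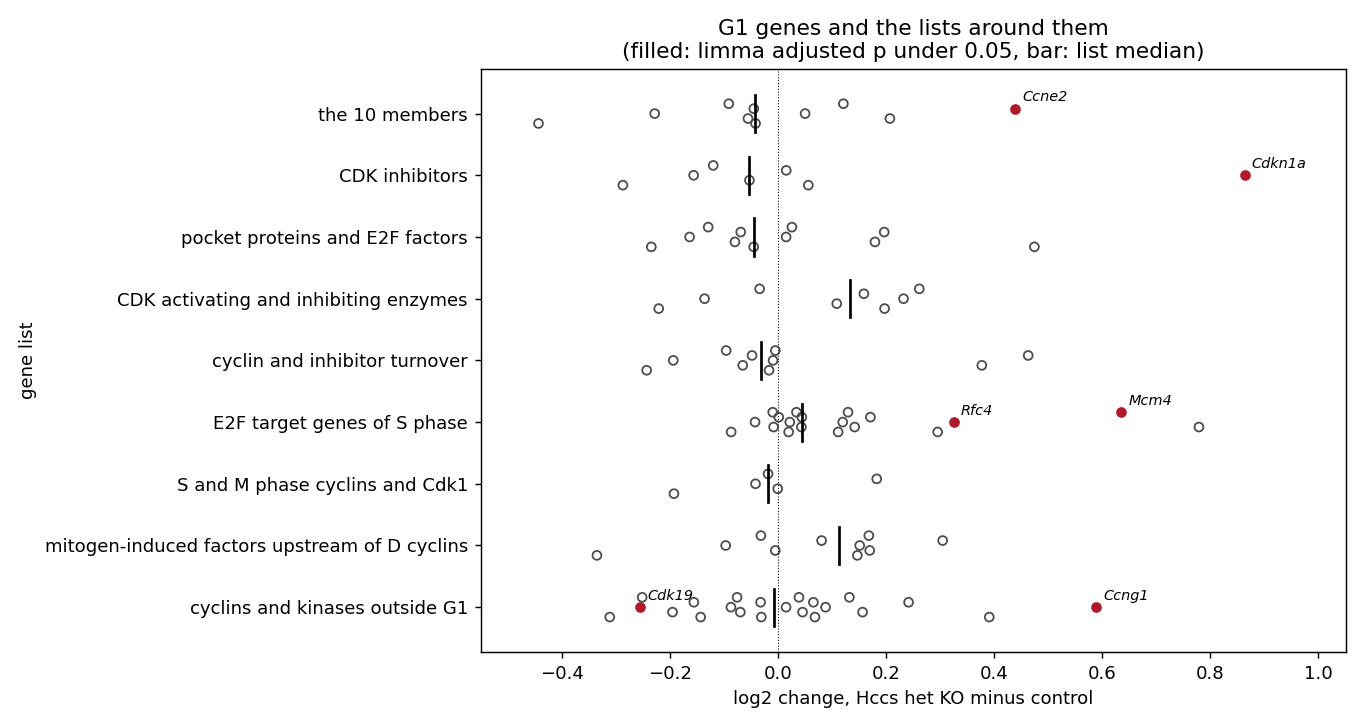
Log2 change (Hccs het KO minus control, horizontal axis) of every measured gene of 8 pathway lists and of the 10 G1 genes, 1 point per gene, filled where the limma adjusted p was under 0.05, with the list median as a bar. The filled points are Ccne2, Cdkn1a, Rfc4, Mcm4, Cdk19 and Ccng1, and the medians lie between -0.053 and 0.13.

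With the group means taken out, the pool-to-pool variation of Ccne2, Ccnd3 and Cdk4 was set against that of 10916 genes above the 40th percentile of level. The genes most like Ccne2 were Mospd2 (Pearson r = 0.955), Atxn3 (0.940) and Selenos (0.927). Those most like Ccnd3 were Wdr13 (0.938), Acss1 (0.935) and Xirp1 (0.934), and those most like Cdk4 were Trim32 (0.960), Cep70 (0.939) and Pth1r (0.938). These are the highest of many values over 10 arrays that share their hybridisations, and they describe these pools only. No other member was among the 3 genes most like any of them.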

How the data were processed

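RNA of 10 pools was measured on Affymetrix arrays, 5 Hccs het KO and 5 control. The values are log2 signals that the authors deposited, made with RMA and Partek per the submitters' processing notes, with versions and background settings not given in the sources used here. Gene symbols came from the platform annotation: 34945 probe sets had 1 symbol, 932 several and 9160 none, and 64 control probe sets were left out. Through Entrez gene identifiers 34741 were matched to RefSeq genes and 0 symbols changed. Suffixes _x_at and _s_at mark probe sets that can read related transcripts.

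The members and lists were chosen with earlier results of these data known. A linear model of genotype (lmFit and eBayes of limma 3.58.1, run in R 4.3.3) was applied to 18193 genes, each by its brightest probe set, and to all 45037 probe sets, with Benjamini-Hochberg adjustment over all of them and a threshold of 0.05. Pairs of genes were tested by exact permutation of the pools. The fit was tested on simulated data. The number of arrays limits the precision. Named were all members, Hccs, list genes past the threshold, the 2 next by p in each list, 9 fixed pathway genes where measured, and the 3 genes most like each of the 3 members with the smallest p. Alternatives changed the normalization, level filter, probe set choice, eBayes settings, array weights, threshold, block and arrays. Figures were drawn with matplotlib 3.10.9. Protein sequences were not used here, and 3 listed pathway genes were not analysed here.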

Additional observations from a re-analysis of the deposited data

Results flagged for a closer look

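Of 58 groups of 5 pools (29 probe sets by 2 genotypes), 4 held a pool whose gap to its nearest neighbour took up more than 0.71 of the group's range, a limit that chance passes in about 5% of groups. For Ccnd1 probe set 1448698_at the ratio was 0.807, with Hccs het KO replicate 5 at 10.55 and the other Hccs het KO pools at 10.05 to 10.15. For Cdk6 probe set 1435338_at it was 0.730, with Hccs het KO replicate 2 at 8.47 and the other Hccs het KO pools at 8.83 to 8.97. For the dim Rb1 probe set 1444400_at it was 0.738, with Hccs het KO replicate 2 at 2.33 and the other Hccs het KO pools at 2.27 to 2.29. For the dim Cdk6 probe set 1460291_at it was 0.712, with control replicate 2 at 2.14 and the other control pools at 2.20 to 2.23.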

How the results depend on the processing

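In 22 alternatives, 10 of which left out 1 pool, 1 of 10 member genes passed in the reported fit. None passed at an adjusted p of 0.01, without both arrays numbered 3, after quantile normalization or with the replicate block (0 each), and 2 passed with the mean of probe sets or the most variable one (leave-one-out 0 to 2). Of member probe sets 1 passed, against 3 with array weights, 2 and 3 above the lower quartile and the median of level, and 2 with median centring (leave-one-out 1 to 3). All-gene calls were 469, against 14 at an adjusted p of 0.01, 945 with array weights, 30 without both arrays numbered 3, 759 above the median level and 36 with the replicate block (leave-one-out 105 to 1042). List calls were 5, against 1 at 0.01, 2 without both arrays numbered 3, 3 with every probe set, 2 with the mean, 3 with the most variable and 1 with the block (leave-one-out 1 to 8). Of 6 pairs 2 passed and 0 with the block, whose 5 signed differences cannot pass (leave-one-out 0 to 3). The replicate numbers did not pair the pools: correlations of deviations ran over -0.10 to 0.097, and 1 of 5 Hccs het KO arrays was closest to its own number. Hccs kept its direction and missed the threshold at 0.01 (-0.55), with the block (-0.55) and without both arrays numbered 3 (-0.59), and also without control replicate 2 or 3 or Hccs het KO replicate 2 or 4 (adjusted p 0.0511 to 0.0563), with changes of -0.60 to -0.48 over the leave-one-out fits.

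Small changes turned sign. With 1 pool left out the ranges were -0.097 to 0.0037 for Ccnd1, -0.015 to 0.090 for Cdk2, -0.17 to 0.021 for E2f1, -0.11 to 0.076 for Rb1, -0.12 to 0.025 for Cdkn1b, -0.089 to 0.025 for Rbl1, -0.060 to 0.012 for Cdk1, -0.054 to 0.019 for Pcna and -0.21 to 0.13 for E2f1 minus Rb1. The mean of probe sets gave 0.0034 for Ccne1, 0.092 for Cdkn1b, 0.066 for Rbl1 and -0.075 for Ccnd1 minus Ccnd3, and the most variable one gave 0.062, 0.24 and 0.24 for Ccne1, Cdkn1b and Rbl1. Pcna was 0.0062 with median centring, and Rb1 was 0.013 with array weights and 0.063 without both arrays numbered 3. The causes were not tested. With 5 pools a group, dim probe sets limit what the arrays can show.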
